A study of Mus musculus with 16 samples.

Results

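The transcripts of 10 T cell cytokines were followed, those of Il2, Ifng, Tnf, Lta, Ltb, Csf2, Il3, Il10, Il13 and Osm. They were chosen by gene symbol from a count table of 54532 genes, and all 10 symbols were found. The samples were mouse CD8+ T cells of the C57BL/6J strain, isolated as naive cells from spleen and turned in vitro into antigen-experienced TCF1+CD8+ T cells by repeated activation over 4 days. Every culture was then incubated for 1 h with or without prostaglandin E2 (PGE2) at 100 ng/ml and kept for another 4 h in low-dose IL-2 (85 U/ml), either alone (unstimulated cells) or together with anti-CD3/CD28 beads at 1 bead per cell (stimulated cells). Poly(A) RNA was sequenced from 4 replicates of each of the 4 groups: unstimulated untreated, unstimulated PGE2, stimulated untreated and stimulated PGE2. All 16 samples, the controls included, therefore came from previously activated cells in IL-2, and there was no group without IL-2.

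Cytokine genes of T cells are largely switched on by signals from the T cell receptor and CD28, which reach the genes through transcription factors of the NFAT, AP-1 and NF-kB families. Their messenger RNAs are usually short-lived, in part through AU-rich elements built on the pentamer ATTTA that are read by decay proteins such as tristetraprolin. PGE2 is a lipid mediator that raises cyclic AMP in T cells through its EP2 and EP4 receptors and is known to restrain T cell activation. In CD8+ T cells IL-2 is the growth factor that supports expansion, interferon-γ and TNF are the main effector cytokines, and the lymphotoxins are TNF relatives that organize lymphoid tissue.

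The promoters of Il2, Ifng, Tnf and Il13 are given here as examples. Ifng and Il2 had the largest bead responses without PGE2, and Il13 fell most with PGE2 in stimulated cells. Tnf was lower with PGE2 in both states, as were Il2 and Lta. Each promoter shown is the RefSeq sequence directly upstream of the start site on GRCm38.p6, written 5′ to 3′ on the coding strand. Capitals mark the NFAT core GGAAA or its reverse complement TTTCC.
Il2 (chr3:37125960-37126204, minus strand): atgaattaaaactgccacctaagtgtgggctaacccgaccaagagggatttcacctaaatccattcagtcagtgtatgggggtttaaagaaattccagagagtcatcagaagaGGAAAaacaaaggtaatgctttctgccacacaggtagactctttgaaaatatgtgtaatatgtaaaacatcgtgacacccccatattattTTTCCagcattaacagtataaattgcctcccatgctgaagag
Ifng (chr10:118440796-118441045, plus strand): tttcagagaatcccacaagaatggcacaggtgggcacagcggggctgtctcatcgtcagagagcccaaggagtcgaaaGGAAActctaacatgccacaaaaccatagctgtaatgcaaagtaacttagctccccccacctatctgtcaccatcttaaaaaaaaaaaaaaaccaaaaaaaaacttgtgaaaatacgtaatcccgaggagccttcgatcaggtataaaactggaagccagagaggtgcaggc
Tnf (chr17:35202008-35202257, minus strand): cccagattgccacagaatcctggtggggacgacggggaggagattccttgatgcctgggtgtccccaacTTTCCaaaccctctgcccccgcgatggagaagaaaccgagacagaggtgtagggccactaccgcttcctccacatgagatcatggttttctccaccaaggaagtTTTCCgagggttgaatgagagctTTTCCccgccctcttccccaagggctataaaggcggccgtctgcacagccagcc
Il13 (chr11:53634703-53634952, minus strand): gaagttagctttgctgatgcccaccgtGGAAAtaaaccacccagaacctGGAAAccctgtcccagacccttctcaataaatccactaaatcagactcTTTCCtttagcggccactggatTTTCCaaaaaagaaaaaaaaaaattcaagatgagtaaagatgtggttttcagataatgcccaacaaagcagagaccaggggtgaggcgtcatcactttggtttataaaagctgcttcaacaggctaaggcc
Within 250 bases before the RefSeq start, searched on both strands with overlapping matches counted, GGAAA occurred in 8 of the 8 members with a promoter sequence (Il2, Ifng, Tnf, Lta, Ltb, Csf2, Il3 and Il13). It also occurred in 55.6% of 32841 mouse promoters of this length, so its presence is a common feature. Il13 held 4 matches, Tnf held 3 and Ifng held 1. The NF-kB pattern GGGNNNNNCC was found in 5 of the 8 and in 45.8% of all promoters, with 4 matches in Ltb. The AP-1 site TGANTCA (6.75% of all promoters) and the full cyclic AMP response element TGACGTCA (1.55%) were in none of the 8 windows, and the shorter TGACG was in Ifng and Il13 and in 17.8% of all promoters. Matches in letters are not evidence of binding.

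The 3′ untranslated regions were searched for the pentamer ATTTA, in which the members differed. ATTTA, with overlapping matches counted, occurred 9 times in Csf2, 8 times in Tnf, 7 times in Il2 and 6 times each in Ifng, Il10 and Osm. At least 6 copies were found in 16.8% of the longest 3′ untranslated regions of 20996 protein-coding genes, and at least 9 in 8.53%. Lta and Il13 each had 3 copies and Il3 had 1 in its 101 bases, whereas Ltb had none in its 174 bases. The regions differed in length, up to 1017 bases in Osm, so these counts are not densities. Per kilobase Il3 held 9.901 copies, against 9.509 in Ifng, 8.499 in Il10 and 5.9 in Osm. Lta, Il13 and Ltb were also below Il3 by this measure, and Il2, Tnf and Csf2 were above it. At least 3 copies were found in 35.5% of the genes searched and at least 1 in 65.0%. The 30-base stretches of 4 members that were richest in the pentamer are shown with ATTTA in capitals, in GENCODE M21 coordinates on GRCm38.
Il2 (chr3:37121040-37121069): ctATTTATTTAaatATTTAactttaATTTA
Ifng (chr10:118445330-118445359): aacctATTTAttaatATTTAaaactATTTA
Tnf (chr17:35199679-35199708): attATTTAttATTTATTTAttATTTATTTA
Csf2 (chr11:54247329-54247358): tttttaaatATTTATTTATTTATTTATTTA
Tnf and Csf2 each held 5 overlapping copies in this stretch, Il2 held 4 and Ifng held 3.

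All 10 genes are protein-coding, and 2 chromosomal neighbourhoods hold several of them. Tnf (chr17:35199381-35202007, minus strand), Lta (chr17:35203165-35205351, minus strand) and Ltb (chr17:35194439-35196320, plus strand) lie side by side, with 1158 bases between Tnf and Lta and 3061 between Tnf and Ltb. Csf2 (chr11:54247271-54249667, minus strand) and Il3 (chr11:54265303-54267277, minus strand) are 15636 bases apart. Il13 (chr11:53631324-53634702, minus strand) is 12655 bases from Il4, and Osm (chr11:4236420-4241026, plus strand) is 16531 bases from Lif. Il2 (chr3:37120523-37125959, minus strand), Ifng (chr10:118441046-118445892, plus strand) and Il10 (chr1:131019845-131024974, plus strand) stand alone among the members. The members Ifng and Csf2 share exon bases with another annotated gene, the former over 336 bases with an unclassified transcript on the same strand and the latter over 96 bases with an antisense transcript; whether reads were counted by strand is not given in the sources used here, so reads falling there cannot be told apart.

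The libraries held between 22678254 and 42950763 assigned counts, and values below are CPM, a gene's read count relative to the size of its TMM-scaled library, unless stated otherwise. The labelled cell type was visible at the RNA level, with Tcf7, the gene of TCF1, at 913 to 1540 CPM in unstimulated and 289 to 469 CPM in stimulated cells, Cd8a at 667 to 1209 CPM, Cd3e at 218 to 344 CPM and Cd4 at no more than 1.87 CPM in any sample. Markers of myeloid cells summed to at most 0.507 CPM, of B cells to at most 6.31 CPM and of mast cells and basophils to at most 2.43 CPM. The NK cell defining gene Ncr1 was at 0 in all 16 samples, while Klrd1, which CD8+ T cells also express, was at 61.8 to 73.4 CPM in stimulated untreated and 176 to 185 CPM in stimulated PGE2 cells. Dendritic cell markers summed to 2.51 to 6.16 CPM in unstimulated and 10.7 to 17.8 CPM in stimulated cells, mostly from Zbtb46, with Flt3 at no more than 0.184 CPM; their part in the results was not tested. The 4 CD4 T cell markers summed to 18.0 to 40.6 CPM, carried by Zbtb7b at 10.3 to 34.4 CPM and Foxp3 at 3.09 to 9.07 CPM, with Cd40lg higher with the beads (log2 2.93 ± 0.35; edgeR adjusted p = 8.71e-06); no marker of this list was called with PGE2 in either state, and their part in the results was not tested. The activation genes Cd69, Nr4a1 and Nr4a3 all rose with the beads, by 3.43, 3.91 and 3.46 on the log2 scale without PGE2. Nothing in the sources used here says whether the replicates came from separate animals or cultures, so p-values measure only the spread between these samples.

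The first comparison concerned what the beads did to cytokine transcripts in the absence of PGE2. Of the 10 transcripts 9 rose at least 2-fold at an adjusted p below 0.05 (edgeR's quasi-likelihood test with Benjamini-Hochberg adjustment over all tested genes, the rule used for every call below), and their 4 stimulated samples all lay above the 4 unstimulated ones, a separation that 30.4% of all tested genes showed. Over all genes 23.2% of 14205 tested genes passed this rule, 11.5% higher and 11.7% lower. The members' median log2 fold change was 3.98, against -0.03 over all tested genes. Ltb was the exception.

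Ifng, which encodes interferon-γ, had the largest response. It was at 3.40, 4.83, 7.24 and 26.4 CPM in the unstimulated untreated samples (replicates 1 to 4) and at 1259, 1242, 816 and 663 CPM in the stimulated untreated ones. The log2 fold change was 6.54 ± 0.58 (SE; edgeR adjusted p = 7.08e-07). Il2 was at 0.441, 0.832, 1.55 and 3.37 CPM before and at 159, 117, 79.4 and 49.9 CPM after bead stimulation, a log2 fold change of 5.95 ± 0.48 (edgeR adjusted p = 3.12e-07). For both genes the unstimulated sample with the highest level and the stimulated sample with the lowest level were those of replicate 4, and the groups did not overlap.

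Il3 and Csf2, which encode growth factors of myeloid progenitors, and Il13, a type 2 cytokine, went from near absence to clear expression. Il3 was covered by 3 to 48 counts per unstimulated untreated library and by 409 to 1455 in the stimulated ones, with a log2 fold change of 5.55 ± 0.47 (edgeR adjusted p = 5.31e-07). Il13 had 0 to 33 counts before and 252 to 527 after stimulation, and its log2 fold change was 5.07 ± 0.45 (edgeR adjusted p = 7.34e-07). Csf2, encoding GM-CSF, had 4 to 73 and 489 to 1158 counts, with a log2 fold change of 4.58 ± 0.37 (edgeR adjusted p = 3.7e-07).

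Tnf and Lta were already well expressed in the unstimulated cells and rose by similar amounts. Tnf lay between 20.6 and 29.8 CPM before and between 189 and 310 CPM after stimulation, a 10.2-fold rise (log2 3.36 ± 0.17; edgeR adjusted p = 1.7e-08). Lta, encoding lymphotoxin-α, lay between 39.0 and 53.8 CPM and then between 398 and 499 CPM, a 9.75-fold rise (log2 3.29 ± 0.12; edgeR adjusted p = 4.8e-09). Il10, encoding an anti-inflammatory cytokine, rose 10.4-fold but stayed scarce, at 2.62 to 5.73 CPM in stimulated untreated cells. Osm, encoding oncostatin M of the IL-6 family, had the smallest rise of the 9, 3.43-fold (log2 1.78 ± 0.08), with little spread between replicates.

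Ltb, encoding lymphotoxin-β, the membrane partner of lymphotoxin-α, did not pass the rule, although its neighbours Tnf and Lta did. It was at 971, 774, 781 and 637 CPM in the unstimulated untreated samples and at 1323, 1114, 1058 and 782 CPM in the stimulated untreated ones. The ranges overlapped, and the log2 fold change of 0.43 ± 0.16 stayed under 2-fold (edgeR adjusted p = 0.0298). Per transcript length it was nevertheless the most abundant member in 3 of the 4 groups, with a mean of 496 FPKM in unstimulated untreated cells, where the next was Lta at 32.0 FPKM. Ifng exceeded it only in stimulated untreated cells (734 against 673 FPKM). The order there went on with Lta (315 FPKM), Tnf (145 FPKM), Il2 (84.9 FPKM), Il3 (42.1 FPKM), Csf2 (32.1 FPKM), Osm (31.9 FPKM), Il13 (11.6 FPKM) and Il10 (3.36 FPKM). Neighbours in this order had overlapping samples for Ifng and Ltb and all along from Tnf to Osm, whereas Ltb and Lta, Lta and Tnf, Osm and Il13, and Il13 and Il10 did not overlap.

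**Figure D1:**
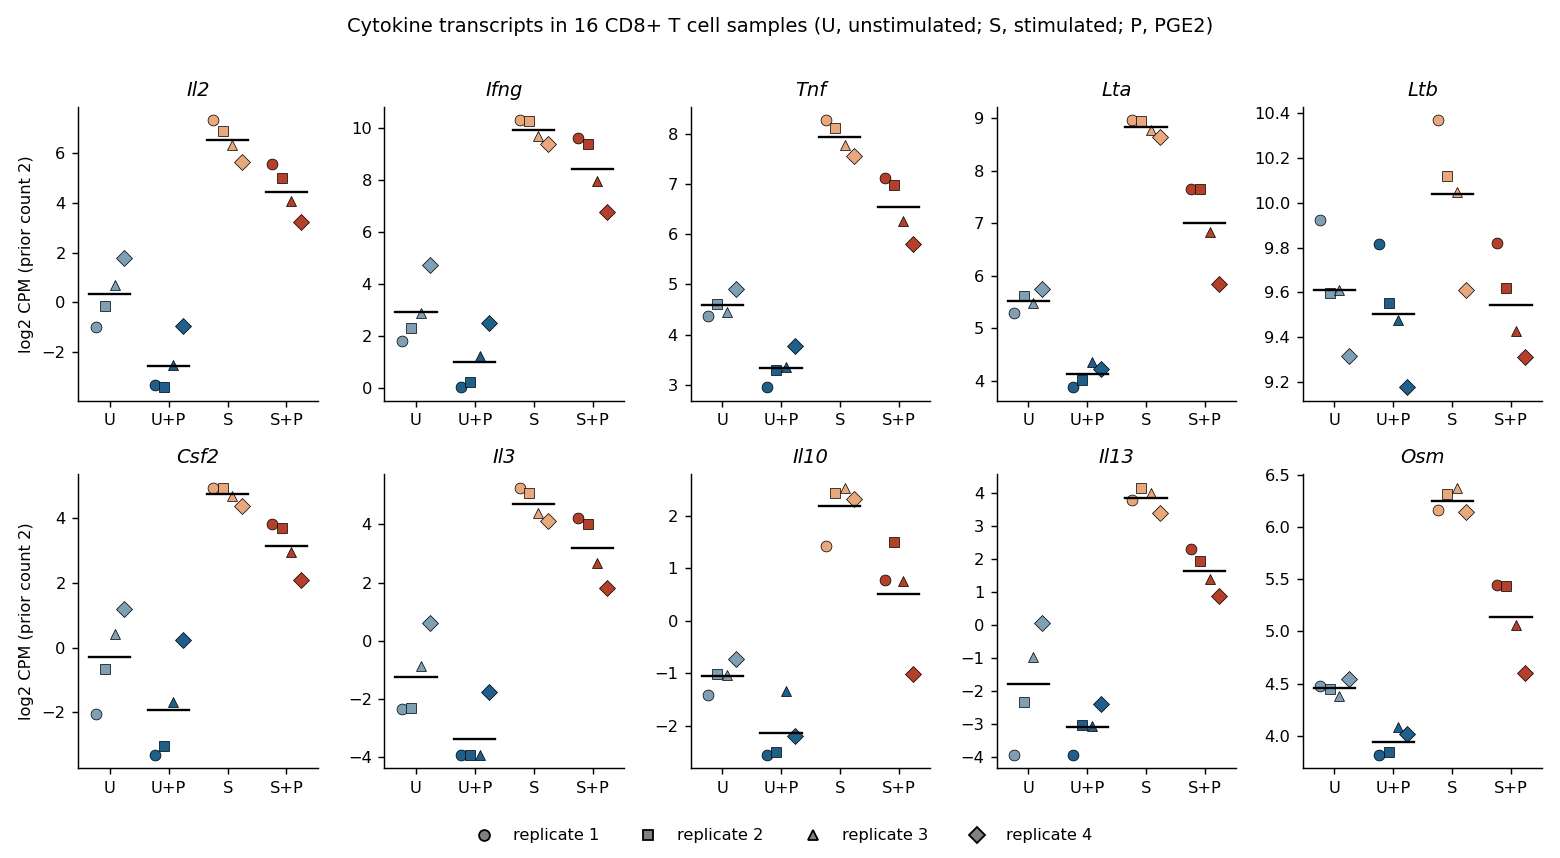
Level of each of the 10 transcripts in every sample as log2 CPM with a prior count of 2 (vertical axes, scaled separately), in unstimulated (U) and stimulated (S) cells without or with PGE2 (P). Symbols mark replicates 1 to 4 and bars the mean of 4 samples; the 4 stimulated untreated samples lie above the 4 unstimulated untreated ones in all panels except Ltb.

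The second comparison concerned PGE2 in stimulated cells. Of the 10 transcripts 6 fell (Il2, Tnf, Lta, Csf2, Il13 and Osm), none rose, and in each of these 6 all PGE2 samples lay below all untreated samples, as was the case for 8.32% of all tested genes. Among 13922 tested genes 1.75% were called, 1.20% higher and 0.546% lower. The median log2 fold change of the 10 members was -1.40, against -0.01 over all tested genes. In bulk RNA a smaller number of producing cells and less transcript per cell cannot be told apart.

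Il13 fell most, from 13.9, 18.1, 16.03 and 10.6 CPM to 4.87, 3.77, 2.59 and 1.79 CPM, which left 22.4% of the untreated level (log2 -2.16 ± 0.28; edgeR adjusted p = 0.00151). Among the markers of group 2 innate lymphoid cells, another source of IL-13, Il1rl1 moved the same way. It was at 1.78 to 3.27 CPM without and 0.357 to 0.963 CPM with PGE2 (log2 -1.96 ± 0.31, edgeR adjusted p = 0.00443). Il1rl1 was itself higher with the beads, being at 0.0845 to 0.266 CPM in unstimulated untreated cells, and which cells carried it was not tested. Gata3 (log2 0.01 ± 0.07) and Rora (log2 0.48 ± 0.21), both also expressed by T cells, were not called, and the list summed to 51.9 to 57.8 CPM without and 52.4 to 63.8 CPM with PGE2; the part of such cells in the Il13 result was not tested. Il2 fell from the stimulated levels given above to 46.6, 31.4, 16.7 and 9.18 CPM, leaving 25.8% (log2 -1.95 ± 0.47; edgeR adjusted p = 0.0305). The highest Il2 sample with PGE2 and the lowest without it were close, at 46.6 and 49.9 CPM, so the groups were separate by a small margin. With the replicate number as a block the Il2 estimate was nearly the same and more precise (log2 -2.04 ± 0.09, edgeR adjusted p = 2.62e-07). Whether a number marks a shared source is not given, so this precision depends on the pairing.

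Lta, Tnf and Csf2 formed a middle group. Lta was at 499, 496, 437 and 398 CPM without and at 202, 200, 115 and 57.8 CPM with PGE2, leaving 31.6% (log2 -1.66 ± 0.33; edgeR adjusted p = 0.0115). Tnf was at 310, 279, 221 and 189 CPM without and at 138, 126, 76.5 and 55.9 CPM with PGE2, leaving 40.0% (log2 -1.32 ± 0.27; edgeR adjusted p = 0.0142). Csf2 was at 30.7, 30.7, 25.7 and 20.7 CPM without and at 14.1, 12.7, 7.67 and 4.14 CPM with PGE2, leaving 36.2% (log2 -1.47 ± 0.31; edgeR adjusted p = 0.0173). In all 3 genes the PGE2 samples of replicates 3 and 4 were the lowest. Osm fell least among the 6, from 70.7 to 83.0 CPM down to 24.2 to 43.4 CPM (log2 -1.07 ± 0.16; edgeR adjusted p = 0.00355).

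Ifng, Il3, Il10 and Ltb did not pass the rule in this comparison. Ifng was at 773, 668, 248 and 109 CPM with PGE2, and its 2 highest PGE2 samples reached into the range of the untreated ones (663 to 1259 CPM). Its log2 fold change was -1.14 ± 0.51 (edgeR adjusted p = 0.184). Il3 was at 17.3 to 38.5 CPM without and 3.42 to 18.8 CPM with PGE2 (log2 -1.30 ± 0.46; edgeR adjusted p = 0.103). Il10 was at 2.62 to 5.73 and 0.427 to 2.76 CPM (log2 -1.50 ± 0.42; edgeR adjusted p = 0.0505), just outside the threshold, and it was called in 6 of 10 other settings, DESeq2 among them (adjusted p = 0.00291). Ltb was at 782 to 1323 and 635 to 903 CPM (log2 -0.50 ± 0.15; edgeR adjusted p = 0.0708).

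Compared within a replicate number, the PGE2 sample was lower than its untreated counterpart in 4 of 4 pairs for each of the 10 members. The share of all genes with this order was not computed. The within-pair log2 differences for Ifng were -0.70, -0.89, -1.72 and -2.61 in replicates 1 to 4. Those of Il2 were -1.77, -1.90, -2.24 and -2.43, and those of Ltb lay between -0.62 and -0.30. Over all genes the fit with a replicate block called 349 of 13922, 117 of them lower, against 243 and 76 without the block. With the replicate number as a block, 9 of the 10 members were called lower, Ifng (log2 -1.45 ± 0.25; edgeR adjusted p = 0.00112), Il3 (log2 -1.42 ± 0.16; adjusted p = 0.000103) and Il10 (log2 -1.52 ± 0.32; adjusted p = 0.00332) being added, while Ltb stayed under 2-fold. In the unblocked fit the number of called members dropped from 6 to 3 without stimulated untreated replicate 2 or without stimulated PGE2 replicate 3, when Il2, Tnf and Csf2 missed the threshold (adjusted p of 0.0504 to 0.0951). Il2 also missed it without untreated replicate 1 or 3 or PGE2 replicate 2 (adjusted p of 0.0555 to 0.0814) and Osm fell under 2-fold without PGE2 replicate 4 (log2 -0.93), whereas Il3 was called without PGE2 replicate 1 (adjusted p = 0.0392) and Il10 without untreated replicate 1 (adjusted p = 0.042) or PGE2 replicate 2 (adjusted p = 0.0349).

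**Figure D2:**
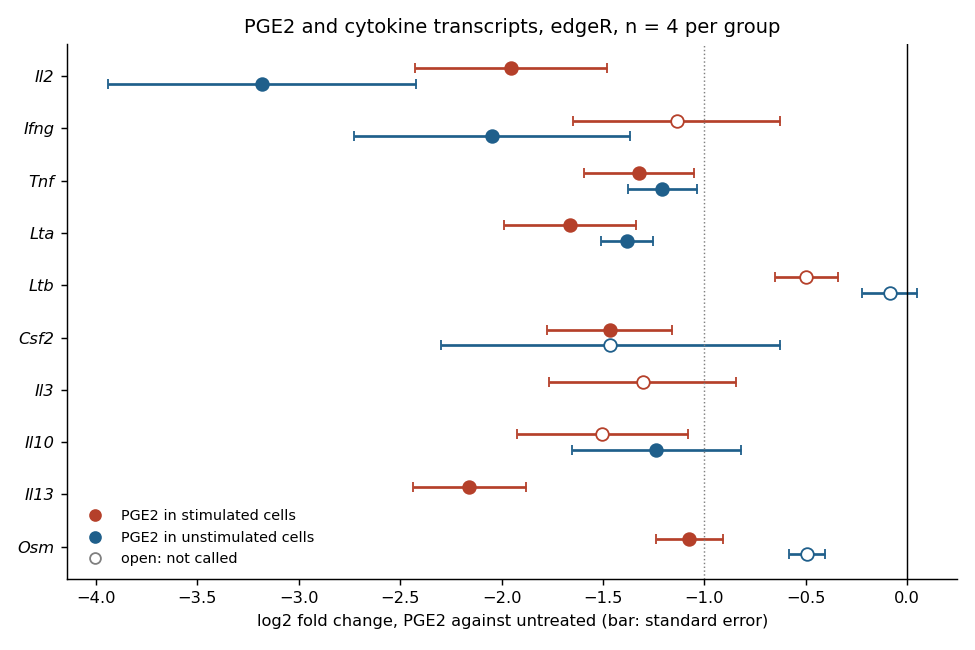
Log2 fold change of each transcript between PGE2 and untreated cells (horizontal axis; bars, standard error from edgeR, 4 samples per group), in stimulated and unstimulated cells; filled points passed the call and the dotted line marks a 2-fold decrease. All points lie left of 0, Ltb nearest to it; Il3 and Il13 have no point in unstimulated cells, where they were too rare to be tested.

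The third comparison asked the same of unstimulated cells, which had IL-2 but no beads. Enough counts for a test were found for 8 members, and 5 of them fell (Il2, Ifng, Tnf, Lta and Il10), whereas none rose. Of 14505 tested genes 3.38% were called, 1.45% higher and 1.92% lower. The median log2 fold change over the 8 members was -1.31, against -0.001 over all genes.

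Lta and Tnf were the most clearly separated. Lta was at 39.0, 48.7, 44.4 and 53.8 CPM without and at 14.7, 16.2, 20.5 and 18.7 CPM with PGE2, leaving 38.4% (log2 -1.38 ± 0.13; edgeR adjusted p = 2.31e-05). Tnf was at 20.6, 24.5, 21.9 and 29.8 CPM without and at 7.66, 9.74, 10.1 and 13.6 CPM with PGE2, leaving 43.3% (log2 -1.21 ± 0.17; edgeR adjusted p = 0.000357). Neither gene's groups overlapped. The share of all genes that were lower with PGE2 without overlap was not computed for unstimulated cells.

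Il2 and Ifng had larger fold changes from far fewer reads. Il2 had 10, 25, 55 and 112 counts in the untreated libraries and 1, 1, 4 and 18 in the PGE2 libraries (log2 -3.18 ± 0.76; edgeR adjusted p = 0.00903). The PGE2 sample of replicate 4, at 0.458 CPM, lay just above the untreated sample of replicate 1, at 0.441 CPM, so the ranges met. Ifng was at 0.949, 1.10, 2.29 and 5.50 CPM with PGE2 against 3.40 to 26.4 CPM without (log2 -2.05 ± 0.68; edgeR adjusted p = 0.0431). Its call was lost without unstimulated untreated replicate 4, which held the highest level (log2 -1.03; adjusted p = 0.18), and without untreated replicate 3 or PGE2 replicates 1, 2 or 3 (adjusted p of 0.0576 to 0.115). Within replicate numbers Ifng was lower with PGE2 in 4 of 4 pairs, with log2 differences of -2.25 to -1.63, and the blocked fit gave log2 -1.996 ± 0.13 (edgeR adjusted p = 1.7e-09).

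Il10 rested on 7 to 18 counts without and 3 to 12 with PGE2 (log2 -1.24 ± 0.42; edgeR adjusted p = 0.045), and its groups overlapped. The Il10 call was lost without 6 of the 8 libraries in turn, namely untreated replicates 2, 3 and 4 and PGE2 replicates 1, 2 and 4, with adjusted p between 0.0845 and 0.116 except 0.129 without PGE2 replicate 2, and also with DESeq2 (adjusted p = 0.0804). Csf2 was at 0.176 to 2.20 CPM without and 0.0351 to 1.12 CPM with PGE2 and was not called (log2 -1.46 ± 0.84; edgeR adjusted p = 0.225). It was called with the replicate block (log2 -1.69 ± 0.36; edgeR adjusted p = 0.000952) and without unstimulated PGE2 replicate 4 (log2 -3.13; adjusted p = 0.019). Osm was at 20.7 to 23.3 CPM without and 14.1 to 16.9 CPM with PGE2, a separation without overlap that was under 2-fold (log2 -0.49 ± 0.09; edgeR adjusted p = 0.00155). Ltb, at 637 to 971 and 578 to 902 CPM, differed by less than the spread between samples (log2 -0.09 ± 0.14; edgeR adjusted p = 0.69).

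Il3 and Il13 were not tested in unstimulated cells. Il3 had 3, 4, 17 and 48 counts in the untreated libraries and 0, 0, 0 and 9 with PGE2, the only detected sample being replicate 4. Il13 had 0, 4, 16 and 33 counts without and 0, 2, 2 and 5 with PGE2. At these counts no difference between the groups was put to a test.

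The fourth comparison was that of the beads in the presence of PGE2, and 9 of the 10 members again rose, all but Ltb. Over all genes 22.1% of 14507 genes were called, 12.7% higher and 9.44% lower. Ifng rose by 7.49 ± 0.78 on the log2 scale (edgeR adjusted p = 1.33e-05) and Il2 by 7.24 ± 0.71 (edgeR adjusted p = 8.62e-06). Tnf rose by 3.28 ± 0.30 and Lta by 3.05 ± 0.35, close to their values without PGE2. Osm rose 2.37-fold. Ltb had a log2 fold change of 0.05 ± 0.14 (edgeR adjusted p = 0.753). The fold change of Il3 with PGE2, 7.38 ± 0.86 on the log2 scale, rested on 9 counts in 1 of 4 unstimulated libraries, and without that library it was 11.41. This comparison shares its samples with both PGE2 comparisons, so its values are not separate evidence about them.

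Whether PGE2 acted differently in stimulated and unstimulated cells was tested as an interaction over all 16 samples. None of the 10 members was called by edgeR, and 1 (Osm) had an unadjusted p under 0.05. DESeq2 called none, and limma on log2(FPKM + 1) called 1, Il13 (-1.56, limma adjusted p = 0.0344). The edgeR estimate for Il13 had the opposite sign (0.48, edgeR adjusted p = 0.961). In unstimulated cells Il13 averaged 0.310 FPKM without and 0.0475 FPKM with PGE2, below the added 1 FPKM. Among 15096 genes 0.232% were called, 0.152% higher and 0.0795% lower. Osm had the lowest adjusted p of the members (-0.56 ± 0.19 on the log2 scale; edgeR adjusted p = 0.271). The interaction estimates of Tnf (-0.10 ± 0.34) and Lta (-0.27 ± 0.37) were smaller than their standard errors, while those of Il2 (1.25 ± 1.18) and Il3 (1.79 ± 1.40) were too imprecise to bound the difference usefully.

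The 4 replicates differed from each other in a recurring way. Replicate 4 had the highest level of 9 of the 10 members in unstimulated untreated cells, which was the case for 29.1% of 15096 genes. In stimulated untreated cells replicate 4 had the lowest level of 9 members (26.9% of genes), and in stimulated PGE2 cells the lowest level of all 10 (30.1% of genes). Both features of the untreated groups together held for 8 members (Il2, Ifng, Tnf, Lta, Csf2, Il3, Il13 and Osm) and for 5.84% of genes. The response to the beads within a replicate number therefore spanned a wide range for some members. For Il2 without PGE2 it was 8.30, 7.03, 5.62 and 3.86 on the log2 scale in replicates 1 to 4. For Il13 it was 7.73, 6.51, 4.96 and 3.34. In both genes the response fell step by step from replicate 1 to 4, and the same order held for Ifng, Tnf, Lta, Csf2 and Il3. Ltb, Il10 and Osm did not follow it. Leaving out replicate 4 alone does not remove this order, and the share of all genes that follow it was not computed. For Osm the response ranged only from 1.60 to 2.00. Mitochondrial transcripts took 1.43% to 1.77% of counts over all samples, and the part of library quality in these differences was not tested. With replicate 4 left out of every group, an alternative chosen after its levels were seen, 5 members were called lower with PGE2 in stimulated cells (Osm at -0.95 fell below 2-fold) and 4 in unstimulated cells (Il10 was lost).

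**Figure D3:**
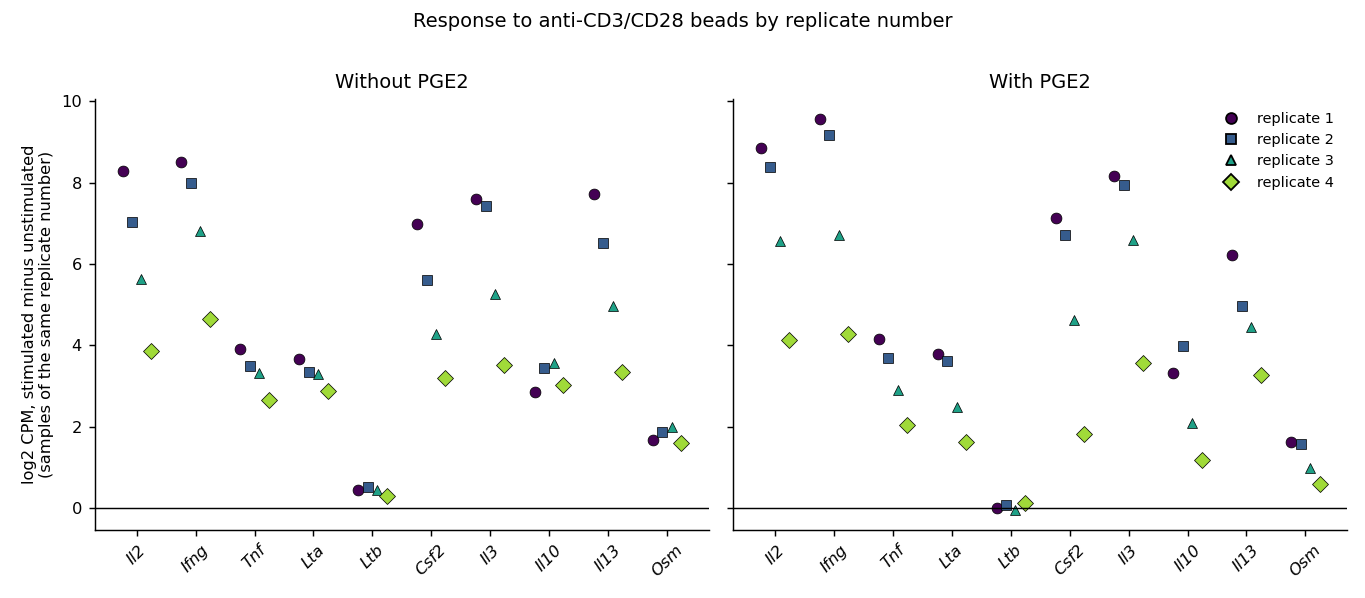
Difference in log2 CPM between the stimulated and the unstimulated sample of the same replicate number (vertical axis) for each transcript, without (left) and with PGE2 (right); symbols mark replicates 1 to 4, 1 pair of samples each. Replicate 4 has the smallest difference for 9 of the 10 transcripts without PGE2, all but Il10, and for Il2 it was 3.86 against 8.30 in replicate 1. With PGE2 the same-numbered samples did not all meet the correlation set for pairs.

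For 6 of the 10 members the most similar transcript was that of another member, and Csf2 and Il13 were each other's nearest. Likeness was taken as the smallest root mean square difference of centred log2 CPM over the 16 samples, among 12252 genes of at least 1 CPM. Closest to Il2 were Il3 (0.46), the chemokine gene Ccl4 (0.49) and Ifng (0.57). Closest to Il3 was Ccl4 (0.35), and closest to Csf2 was Il13 (0.59), followed by the chemokine gene Ccl3 (0.61). Tnf was most like Crtam, a gene of activated lymphocytes (0.23), and then its neighbour Lta (0.26). Il10 was most like Lta (0.39). Ltb was nearest to Celsr1 (0.11), Mfng (0.14) and Vasp (0.15), none of them a cytokine gene. Osm was nearest to Ptger4 (0.16), which encodes the EP4 receptor for PGE2. These are descriptions over samples that share the 4 groups.

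The cytokine genes next to Osm and Il13 were not called with PGE2 in stimulated cells. Lif, encoding another IL-6 family cytokine, was induced by the beads (log2 4.80 ± 0.35; edgeR adjusted p = 1.5e-07) and was at 537 to 641 CPM in stimulated untreated and 215 to 656 CPM in stimulated PGE2 cells. Its log2 fold change with PGE2 was -0.33 ± 0.29 (edgeR adjusted p = 0.477), and the groups overlapped. Il4, the partner of Il13 in the type 2 locus, stayed at no more than 0.741 CPM in any sample and had a log2 fold change of -0.31 ± 0.33 with PGE2 in stimulated cells (edgeR adjusted p = 0.574). The difference between Lif or Il4 and the members was not tested. Of 35 tested non-member genes within 1e+05 bases of a member, 2 were lower with PGE2 in stimulated cells and 0 higher, against 0.546% lower over all genes. These were Ly6g5b near Tnf (log2 -1.05 ± 0.16, edgeR adjusted p = 0.00367) and Adad1 (log2 -1.93 ± 0.40, edgeR adjusted p = 0.0149). Adad1 averaged 0.865 CPM, and its gene overlaps that of Il2 on the opposite strand.

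Of 19 genes for receptors of these cytokines 13 were tested, and 2 rose with PGE2 in stimulated cells while none fell. Over all tested genes 1.20% were called higher and 0.546% lower. Both encode the interferon-γ receptor. Ifngr1 was at 102, 96.2, 143 and 157 CPM in stimulated untreated and at 399, 402, 518 and 552 CPM in stimulated PGE2 cells, a 3.78-fold rise (log2 1.92 ± 0.18; edgeR adjusted p = 0.000303). Ifngr2 was at 6.67 to 11.1 and 15.3 to 21.6 CPM, a 2.08-fold rise (log2 1.06 ± 0.19; edgeR adjusted p = 0.00736). No sample of the 2 groups overlapped for either gene. The share of all genes that were higher with PGE2 without overlap was not computed in either state.

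In unstimulated cells none of the 13 receptor genes passed the rule by edgeR or by DESeq2, although 8 had an unadjusted p under 0.05. Ifngr1 (log2 0.68 ± 0.08; edgeR adjusted p = 9.64e-05) and Ifngr2 (log2 0.97 ± 0.10; edgeR adjusted p = 3.35e-05) were higher with PGE2 in every sample but under 2-fold. The interaction was called for Ifngr1 (1.25 ± 0.20 on the log2 scale; edgeR adjusted p = 0.00682) and not for Ifngr2 (0.10 ± 0.21; edgeR adjusted p = 0.965). Beads without PGE2 had lowered Ifngr1 (log2 -2.53 ± 0.14), Ifngr2 (log2 -1.42 ± 0.15) and Il6st, the shared signalling chain for oncostatin M (log2 -1.16 ± 0.09), while Il2ra, the high-affinity IL-2 receptor chain, rose by 1.76 ± 0.14. With PGE2 the beads raised 1 receptor gene, Il2ra (log2 2.18 ± 0.16), and lowered 2, Ifngr1 (log2 -1.25 ± 0.11) and Ifngr2 (log2 -1.29 ± 0.12).

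**Figure D4:**
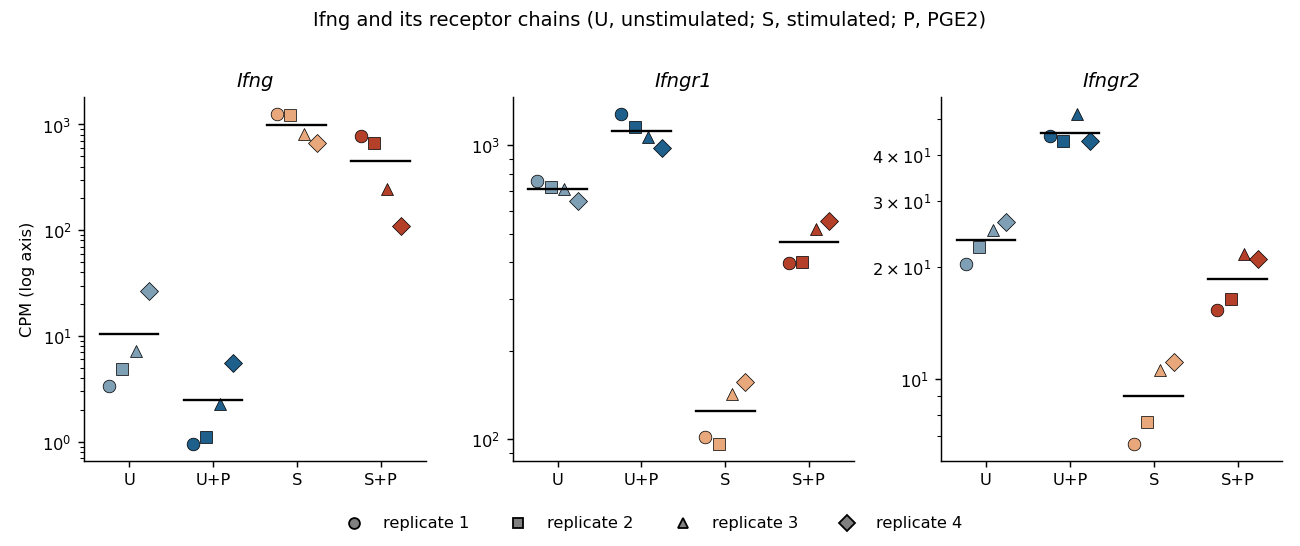
CPM (log axes) of Ifng and of the receptor chain genes Ifngr1 and Ifngr2 in unstimulated (U) and stimulated (S) cells without or with PGE2 (P); symbols mark replicates 1 to 4 and bars the mean of 4 samples. Ifngr1 is lowest in stimulated untreated cells, at 96.2 to 157 CPM, where Ifng is highest, at 663 to 1259 CPM.

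Of 30 other cytokine genes 14 were tested with PGE2 in stimulated cells, and 1 fell, Flt3l, encoding a growth factor of dendritic cells (log2 -1.20 ± 0.13; edgeR adjusted p = 0.000515). In unstimulated cells 13 were tested, and Flt3l fell again (log2 -1.02 ± 0.13, edgeR adjusted p = 0.000196) while Tgfb3 rose (log2 1.56 ± 0.36, edgeR adjusted p = 0.00778). Tgfb3 had a similar estimate in stimulated cells but was not called there (log2 1.57 ± 0.56, edgeR adjusted p = 0.104). Il16 was higher with PGE2 in stimulated cells but under 2-fold (log2 0.57 ± 0.11, edgeR adjusted p = 0.0119). DESeq2 called 1 gene of the list higher and 1 lower in each state. Beads without PGE2 raised 6 of 13, led by Il24 (log2 5.69 ± 0.39), Lif (log2 4.80 ± 0.35) and Il23a (log2 2.98 ± 0.33), and lowered Il16 (log2 -1.71 ± 0.10). With PGE2 they raised 6 of 15 and lowered 1, again with Il24 (log2 6.28 ± 0.76), Lif (log2 5.53 ± 0.53) and Il23a (log2 2.82 ± 0.38) as the leading genes. The interaction was called for 0 of 16 by edgeR and DESeq2, with 2 at an unadjusted p under 0.05.

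Of 22 genes for transcription factors known to act on cytokine genes 21 were tested for the beads without PGE2, and 12 rose, led by Egr2 (log2 3.69 ± 0.22), Irf4 (log2 3.45 ± 0.25) and Fos (log2 3.03 ± 0.24), while Bcl6 fell (log2 -1.14 ± 0.15). With PGE2 11 of 22 rose, led by Irf4 (log2 4.18 ± 0.35), Egr2 (log2 3.36 ± 0.37) and Eomes (log2 3.33 ± 0.39), and Bcl6 fell again. PGE2 lowered 1 of 21 in stimulated cells, Egr2 (log2 -1.04 ± 0.28, edgeR adjusted p = 0.0439), and 1 of 22 in unstimulated cells, Eomes (log2 -1.13 ± 0.24, edgeR adjusted p = 0.00495). An unadjusted p under 0.05 was found for 9 in stimulated and 14 in unstimulated cells, in both directions. The NFAT genes Nfatc1 (log2 -0.55 ± 0.11, edgeR adjusted p = 0.0125) and Nfatc2 (log2 -0.49 ± 0.09, edgeR adjusted p = 0.00849) were lower with PGE2 in stimulated cells but under 2-fold. No interaction was called among the 22 by edgeR or DESeq2, with 9 at an unadjusted p under 0.05.

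A list of 10 genes held regulators of cytokine mRNA decay together with Tnfaip3, which encodes A20, a ubiquitin-editing inhibitor of NF-kB signalling and not a decay factor. None of the 10 was called with PGE2 in either state by edgeR or DESeq2, with 4 at an unadjusted p under 0.05 in each. Beads without PGE2 raised 3, Tnfaip3 (log2 1.81 ± 0.11), Zc3h12a (log2 1.68 ± 0.09) and Zfp36l1 (log2 1.03 ± 0.14), and lowered Zfp36l2 (log2 -1.29 ± 0.11). With PGE2 the beads raised Zc3h12a (log2 1.37 ± 0.08) and lowered Zfp36l2 (log2 -1.21 ± 0.10). The only interaction called in the list was that of Tnfaip3, and it was negative (-1.12 ± 0.13 on the log2 scale, edgeR adjusted p = 0.000873). In unstimulated cells Tnfaip3 was higher with PGE2, at 316 to 339 CPM against 149 to 186 CPM, though not called. In stimulated cells its ranges overlapped, at 474 to 599 CPM with and 514 to 667 CPM without PGE2.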

How the data were processed

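The deposited table held raw read counts per gene for 54532 genes and 16 samples, beside FPKM values made by the authors; both were used, the counts for the main tests. Per the submitters' processing notes reads were aligned with HISAT2 2.0.5 and counted with featureCounts 1.5.0-p3, and DESeq2 1.20.0 was named; the settings for strand are not given in the sources used here. Counts were tested in edgeR 4.0.16 (R 4.3.3; filterByExpr with a minimum count of 10, TMM scaling, quasi-likelihood fit). Each pairwise comparison used its 8 samples and the interaction all 16. A call needed an adjusted p below 0.05 and a fold of at least 2. Alternatives were RLE and upper-quartile scaling, no filter, DESeq2 1.42.0, limma 3.58.1 on log2(FPKM + 1) or log2(FPKM + 0.1), 1 fit of all samples, a replicate block and leaving out each library. The edgeR tests were also run on simulated counts in which every gene had the same spread between replicates. That does not show how they behave for transcripts that vary more, such as Il2 and Ifng. The labels number the replicates 1 to 4 in each group, without naming a shared source. Deviations from group means of same-numbered samples correlated at 0.0439 to 0.444 over 24 pairs. Samples with different numbers in different groups correlated at -0.385 to 0.251. For 14 of the 16 samples the strongest correlation with a sample of another group was with one of the same number. The plan took the numbers as pairs only if every correlation exceeded 0.1, and this was not met. All pairs exceeded 0.1 within both PGE2 comparisons and within bead stimulation without PGE2, and there the numbers were taken as pairs nevertheless. Some of these pairs, among them those of replicate 2 (0.112 to 0.190), lay below the highest value between different numbers. The blocked results therefore rest on a pairing that was assumed. Within bead stimulation with PGE2 they did not, so pairs and blocks there and in the interaction are descriptions only. The members, gene lists and the naming rule (the 3 called genes of a list with the largest fold and at least 1 CPM) were chosen with earlier results of these data known. Promoters came from RefSeq (GRCm38.p6) and exons and 3′ regions from GENCODE M21.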

Additional observations from a re-analysis of the deposited data

Results flagged for a closer look

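Of 40 groups of 4 samples tested (10 transcripts in 4 groups), 2 had 1 sample far from the other 3 by Dixon's ratio; chance flags about 1 group in 20. Ifng was at 26.38 CPM in unstimulated untreated replicate 4, against 3.40 to 7.24 CPM in the other 3 samples of the group. Il3 was at 0.2291 CPM (9 counts) in unstimulated PGE2 replicate 4 and at 0 in the other 3; with 3 samples at 0 Dixon's ratio is at its maximum whatever the fourth value is.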

How the results depend on the processing

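Of 925 values of single transcripts under an alternative, 836 kept both direction and side of the threshold, 37 lost a call, 14 gained one and 38 changed sign, the sign changes all among values that were not called in the reported fit. The members called with PGE2 in stimulated cells were 2 instead of 6 with limma on log2(FPKM + 1) without a filter, and 3 to 7 when 1 library was left out; they were 8 without a filter and 7 with RLE scaling, DESeq2, limma on log2(FPKM + 1) or 1 fit of all samples. Il10, just outside the threshold, was called in these 5 and with the replicate block. In unstimulated cells they were 2 instead of 5 with limma on log2(FPKM + 1), with or without a filter, and on log2(FPKM + 0.1), and 3 to 5 when 1 library was left out (3 without untreated replicate 3 or 4 or PGE2 replicate 1 or 2). Bead stimulation called 8 or 9 members under every alternative run. The interaction called 1 member, Il13, with limma on log2(FPKM + 1). The replicate block called 9 and 6 members with PGE2 in stimulated and unstimulated cells, 9 in both stimulation comparisons and 0 in the interaction. It removed no call of a member. Over all genes it called 349 of 13922 in stimulated and 560 of 14505 in unstimulated cells, against 243 and 490 in the reported fit. With PGE2 in stimulated cells 283 of 25904 genes were called without a filter, 303 with DESeq2 and 49 with limma on log2(FPKM + 1) without a filter. The Ltb estimate, near 0, ranged from -0.1825 to 0.02227 with PGE2 in unstimulated cells and from -0.04987 to 0.1405 with beads plus PGE2 when 1 library was left out, and was -0.07766 with upper-quartile scaling in the latter. The interaction of Csf2, 0.01 in the reported fit, was -0.005053 with RLE scaling, -0.01101 with upper-quartile scaling, -0.02151 without a filter, -0.9023 with limma on log2(FPKM + 1) with or without a filter and -0.04168 on log2(FPKM + 0.1). On log2(FPKM + 1), with or without a filter, that of Il2 was -1.106, of Ifng -0.08049, of Il3 -0.8195 and of Il13 -1.558, and on log2(FPKM + 0.1) that of Il13 was -1.124. That of Tnf was 0.02835 with replicate 4 left out of every group. Leaving out 1 library, the interaction ranged from -0.1112 to 1.68 for Ifng, -0.3092 to 0.07546 for Tnf, -0.6122 to 1.68 for Csf2, -0.5979 to 0.2333 for Il10 and -0.4555 to 1.105 for Il13. A pseudocount of 1 FPKM exceeds the mean level of Il2, Csf2, Il3, Il10 and Il13 in unstimulated PGE2 cells; otherwise the cause of these shifts was not tested. Counts of at most 48 per library limit what unstimulated cells can show for Il3, Il10 and Il13.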
